A study of Mus musculus with 8 samples.

Results

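The transcripts of the mitochondrial genome were followed in RNA from tumors of host mice that the labels call Bmal1+/+ or Bmal1-/-, Bmal1 being a clock gene. All rows of the count table whose symbol begins with mt- were taken. These were 37 of 55487 rows, made up of 13 protein-coding genes, 2 rRNA genes and 22 tRNA genes, and 31 of the 37 had enough counts to be tested.

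The samples were stromal vascular fractions, the cells left when GFP-labelled MC38 colon cancer cells are sorted away from a subcutaneous tumor. The study sequenced 4 libraries from hosts labelled Bmal1+/+ and 4 from hosts labelled Bmal1-/-, a genotype in which the gene is deleted throughout the host, while the implanted cancer cells of both groups carry it intact. Host age, host sex and hour of collection are not given in the sources used here, and nothing in the labels says that each library came from its own animal, so p-values measure the spread between these libraries.

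Several measurements of the whole libraries go against the labels or move with them. Levels of single genes are normalized CPM, counts per 1e6 counts of the library after its size was scaled by a TMM factor. For Bmal1 itself, listed as Arntl, they were 0.960 to 2.71 in the libraries labelled Bmal1+/+ and 30.1 to 35.0 in those labelled Bmal1-/-. A gene count does not show which exons were read, but this is the reverse of the label, so both names stand for the label alone, also where a library is named as a replicate. Xist was at 844 to 1095 CPM in the first group and at most 0.749 in the second, and Ddx3y was at 0 in the first and at 58.1 to 61.2 in the second, so the sex of the cells and the label cannot be told apart. A list of 35 hepatocyte genes took 17.2% to 18.8% of counts in the first group and 16.6% to 20.04% in the second, with none of its genes at 0 in all libraries. A list of 22 stromal genes took 0.0559% to 0.0663% and 0.0291% to 0.0396%, so these markers were a small part of the RNA.

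The mouse mitochondrial genome is a small circle that is read from both strands into long RNAs. The tRNAs lie between the other genes, and cutting them out frees most of the mRNAs and both rRNAs. The mRNAs encode the core of the respiratory chain: subunits of complex I (the mt-Nd genes), complex III (mt-Cytb), complex IV (the mt-Co genes) and the ATP synthase, complex V (the mt-Atp genes). All the proteins that transcribe, cut, stabilise and translate these RNAs are made from nuclear genes. Hepatocytes, muscle and brown fat are known for high levels of these transcripts.

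What the counts of these genes can show depends on their sequence, because stretches of mitochondrial DNA have also been copied into the nucleus. A match of the 37 transcripts to all annotated transcripts found 7 pseudogenes of at least 99% identity, side by side on the minus strand of chromosome 1 between positions 24611535 and 24616197 of GRCm38. They copy mt-Co1, mt-Co2, mt-Atp6, mt-Co3, mt-Nd3, mt-Nd4l and mt-Nd4, in part or nearly whole. Only 2 of the 7 carry a base that differs within the matched stretch, T3C in the copy of mt-Nd3 and A1066T in the copy of mt-Co1, where the first letter is the mitochondrial base, the number is its position counted from the first base of the mitochondrial gene and the last letter is the base of the copy. The first 60 bases of mt-Nd3 (chrM:9459-9518, plus strand) and of its copy Gm28438 (chr1:24613060-24613119, minus strand) show how little separates them, with the differing base in capitals.
mt-Nd3: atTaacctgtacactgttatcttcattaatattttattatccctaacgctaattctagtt
Gm28438: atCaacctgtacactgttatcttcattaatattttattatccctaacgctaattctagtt

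For mt-Co1, bases 1063 to 1122 (chrM:6390-6449, plus strand) are shown with the close copy Gm29216 (chr1:24616129-24616188, minus strand) and with Gm13340, a copy on chromosome 2 that matches the whole gene at 97.6% identity (chr2:22588526-22588585, minus strand). Capitals mark A1066T in the close copy and T1072C in the other.
mt-Co1: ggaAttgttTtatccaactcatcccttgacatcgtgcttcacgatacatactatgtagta
Gm29216: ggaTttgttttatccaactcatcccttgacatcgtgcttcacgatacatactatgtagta
Gm13340: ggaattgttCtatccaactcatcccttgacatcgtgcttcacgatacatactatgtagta

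The counts of the close copies followed those of the mitochondrial genes. Gm10925, which matches 678 of the 681 bases of mt-Atp6 at 100% identity, had 42641 to 112289 counts per library, between 0.995 and 1.04 times the count of mt-Atp6 in the same library. The ratio was 0.983 to 1.06 for Gm10222 and mt-Nd4l, 0.959 to 1.03 for Gm28661 and mt-Co2, 1.06 to 1.21 for Gm28437 and mt-Co3, and 1.16 to 1.45 for Gm28438 and mt-Nd3. It was lower where the copy covers only a part of the gene, at 0.334 to 0.390 for Gm28439, which matches the first 876 bases of mt-Nd4, and 0.150 to 0.180 for Gm29216, which matches the last 483 bases of mt-Co1. Gm13340, with 37 differences from mt-Co1, had 0.0167 to 0.0203 times its count. Fragments that lie within an identical stretch cannot be told apart, so the counts of these 7 mitochondrial genes and of their copies were not separate measurements.

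**Figure D1:**
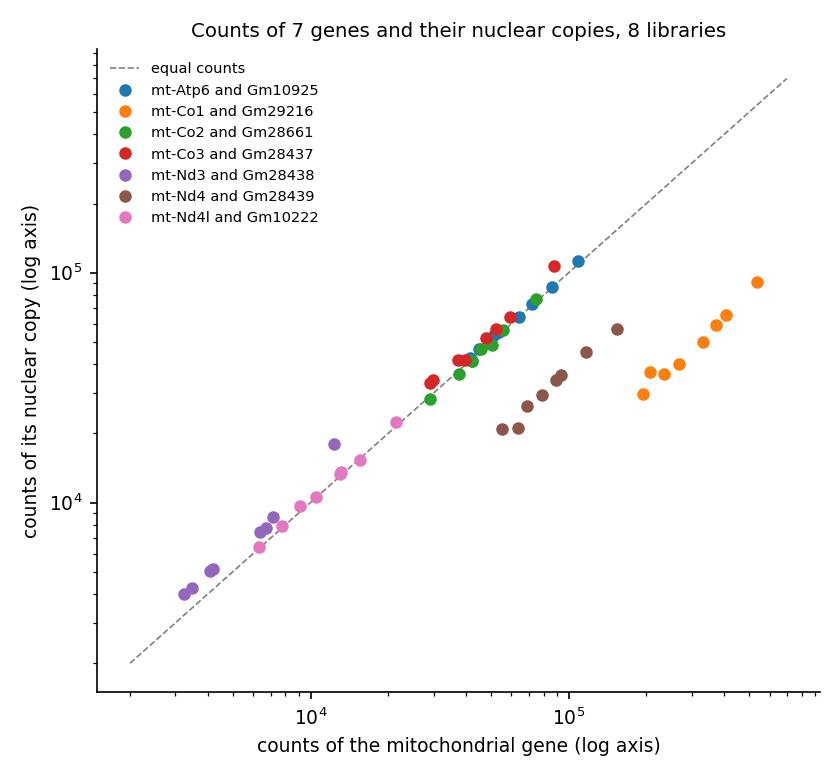
Counts of 7 mitochondrial genes (x axis, log scale) against counts of their nuclear copies on chromosome 1 (y axis, log scale), 1 point per library and gene pair, with a dashed line at equal counts. The pairs that match over nearly the whole gene lie on or near the line, from 0.959 to 1.45 times the mitochondrial count, and the partial copies of mt-Nd4 and mt-Co1 lie below it.

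The 13 mRNAs took a smaller share of all counts in the libraries labelled Bmal1-/-. Their share was 7.07%, 6.40%, 6.43% and 8.51% in Bmal1+/+ replicates 1 to 4 and 5.25%, 5.08%, 4.90% and 4.12% in replicates 1 to 4 of the libraries labelled Bmal1-/-. The groups did not overlap, and their means were 7.10% ± 0.990 (SD, n = 4) and 4.84% ± 0.498 (SD, n = 4). Each share rests on 621055 to 1570847 counts, and the 95% Wilson interval reached at most 0.013 percentage points to either side, which covers counting error only. With the 7 close copies added the shares were 8.24% to 11.1% and 5.23% to 6.68%, and of the counts outside the hepatocyte list the mRNAs took 7.81% to 10.3% and 5.16% to 6.31%, again without overlap. In a bulk library, fewer mitochondria-rich cells and less of these RNAs per cell cannot be told apart.

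**Figure D2:**
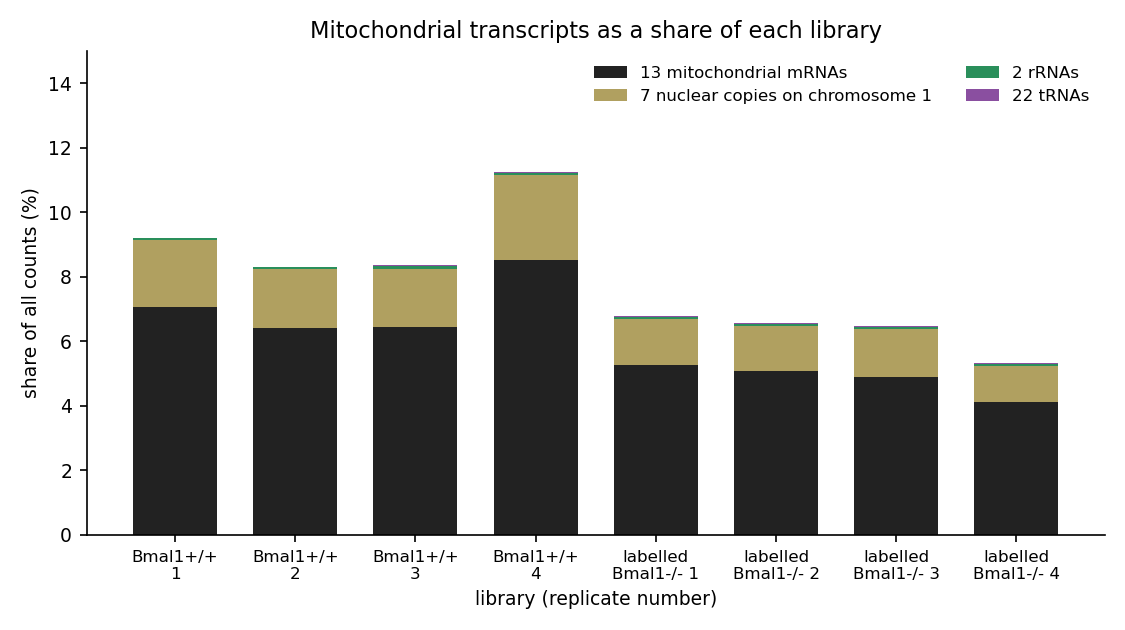
Share of all counts (y axis, percent, stacked bars from 0) on the 13 mRNAs, their 7 close nuclear copies, the 2 rRNAs and the 22 tRNAs in each of 8 libraries; the tRNA segment is too thin to see. The bars of the 4 libraries labelled Bmal1-/- are all shorter than those of the 4 libraries labelled Bmal1+/+, with the mRNA part at 4.12% to 5.25% against 6.40% to 8.51%.

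Gene by gene, 7 of the 13 mRNAs fell in the libraries labelled Bmal1-/- and none rose, at an adjusted p below 0.05 (quasi-likelihood test of edgeR, Benjamini-Hochberg over 14353 genes). By this rule 16.2% of all genes tested were called lower and 14.9% higher. All 13 fold changes were below 0, with a median of -0.62 on the log2 scale, where the median over all genes was 0.02. For 10 of the 13 mRNAs the groups did not overlap and the libraries labelled Bmal1-/- were lower, which held for 16.8% of all genes. No mRNA passed the cut-off that the study used, a change of more than 1 on the log2 scale with an unadjusted p below 0.05, which 8.71% of all genes passed on the lower side.

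Of the 7 subunits of complex I 3 fell, and mt-Nd3 had the largest change of the 13. Its normalized level was 385, 429, 479 and 689 CPM in the group labelled Bmal1+/+ and 263, 224, 291 and 235 CPM in those labelled Bmal1-/-. The lowest of the first group was above the highest of the second, and the difference was -0.97 ± 0.19 (log2, SE), or a fall of 48.9% (adjusted p = 0.0041). The copy Gm28438 had a difference of -1.02 ± 0.24 (adjusted p = 0.011).

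The mRNAs of mt-Nd4l and mt-Nd4 are made as 1 molecule, and their annotated positions share 7 bases. mt-Nd4l was at 936, 840, 874 and 1192 CPM and at 657, 629, 448 and 525 CPM, a difference of -0.77 ± 0.17 (adjusted p = 0.0078). mt-Nd4 was at 7008, 5962, 6016 and 8595 CPM and at 4901, 4791, 4511 and 3746 CPM, a difference of -0.62 ± 0.18 (adjusted p = 0.024). Neither gene overlapped between the groups. The call of mt-Nd4 was lost without Bmal1+/+ replicate 1 (adjusted p = 0.054) or 4 (0.057), and also when replicate 2 (0.050, just above the threshold) or 3 (0.051) of the second group was left out.

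The remaining subunits of complex I did not pass the test. mt-Nd1 was at 3435 to 5764 CPM and at 3111 to 3353 CPM (-0.42 ± 0.18, adjusted p = 0.098), and mt-Nd5 was at 4457 to 5769 CPM and at 3297 to 4096 CPM (-0.40 ± 0.15, adjusted p = 0.072). Neither overlapped between the groups. mt-Nd6, the only mRNA read from the other strand, was at 1016 to 1553 CPM and at 1001 to 1033 CPM, so the groups overlapped (-0.30 ± 0.15, adjusted p = 0.15). mt-Nd2 differed least, at 4310, 4250, 4340 and 6068 CPM against 4557, 4246, 4713 and 3767 CPM. Its difference was -0.13 ± 0.17 (adjusted p = 0.58), and 3 of the 4 libraries labelled Bmal1+/+ lay inside the range of the other group.

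mt-Cytb, the one subunit of complex III encoded here, was the second most counted mRNA after mt-Co1. It was at 10686, 9083, 9353 and 12208 CPM in the group labelled Bmal1+/+ and at 6858, 6995, 6960 and 5606 CPM in those labelled Bmal1-/-. The groups did not overlap, and the difference was -0.65 ± 0.17 (adjusted p = 0.016).

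Of the 3 subunits of complex IV, which hands electrons to oxygen, 2 fell. mt-Co1, the catalytic subunit and the most counted member, was at 24550, 23807, 22297 and 29934 CPM and at 16709, 16152, 14691 and 13173 CPM. Every library of the first group was above every library of the second, with a difference of -0.73 ± 0.18 and a fall of 39.6% (adjusted p = 0.012). mt-Co3 was at 3551, 3334, 3220 and 4905 CPM and at 2474, 2071, 2655 and 1977 CPM, a difference of -0.71 ± 0.18 (adjusted p = 0.016). That call was lost when replicate 2 of the second group was left out (adjusted p = 0.051). mt-Co2 was at 3078 to 4172 CPM and at 1974 to 3014 CPM, without overlap, but its difference of -0.43 ± 0.17 did not pass the test (adjusted p = 0.087).

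The subunits of the ATP synthase, mt-Atp8 and mt-Atp6, are read from 1 mRNA in overlapping frames. The stretch that both genes share is 43 bases long (chrM:7927-7969, plus strand), and it is shown because fragments inside it belong to both genes; capitals mark the start codon of mt-Atp6.
mt-Atp8 and mt-Atp6: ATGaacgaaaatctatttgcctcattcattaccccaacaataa

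mt-Atp6 was at 5174, 4605, 4328 and 6045 CPM and at 3356, 3111, 3653 and 2810 CPM. It fell by 35.8% without overlap between the groups (-0.64 ± 0.16, adjusted p = 0.015). mt-Atp8 was at 392 to 571 CPM and at 323 to 419 CPM, which overlapped (-0.22 ± 0.15, adjusted p = 0.30). The difference between the changes of these neighbours was not tested.

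**Figure D3:**
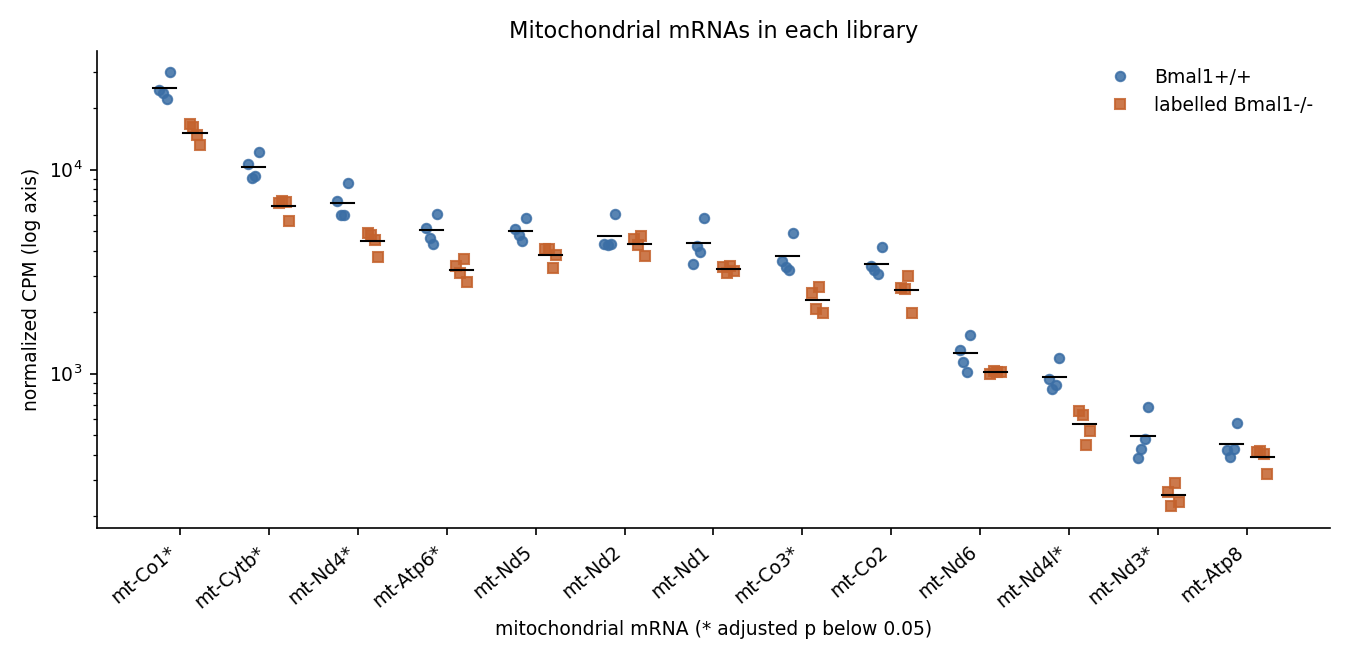
Normalized CPM (y axis, log scale) of the 13 mitochondrial mRNAs in 4 libraries labelled Bmal1+/+ (circles) and 4 libraries labelled Bmal1-/- (squares), with a bar at each group's mean and an asterisk at the 7 genes with an adjusted p below 0.05. The squares lie wholly below the circles for 10 genes and overlap them for mt-Nd2, mt-Nd6 and mt-Atp8.

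The nuclear copies carried the same calls as the genes they match. Of the 7 close copies 6 were called lower, those of mt-Nd3, mt-Nd4l, mt-Nd4, mt-Co1, mt-Co3 and mt-Atp6, and Gm28661, the copy of mt-Co2, was not (-0.49 ± 0.18, adjusted p = 0.064). With each copy's counts added to its mitochondrial gene, 7 of the 13 mRNAs were again called lower. Of 10 less similar copies, between 90% and 99% identity, 4 were tested, and Gm13340, with 3919 to 8960 counts, was called lower (-0.59 ± 0.12, adjusted p = 0.0049), while Gm13339, with 531 to 1285 counts, Gm13341 and Gm4076 were not.

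Compared per length, the members kept nearly the same order in both groups. Levels are given as counts per 1e6 counts of the unscaled library total and per kilobase, with the close copy added. How fragments shared by a gene and its copy were counted is not stated. If they were split, a gene alone is understated, and if they were counted on both, the sum overstates it. The order depends on this choice: without its copy mt-Atp6 was at 7311 in the libraries labelled Bmal1+/+, below mt-Cytb. In the libraries labelled Bmal1+/+ mt-Co1 stood highest at 18660 ± 2390 (SD, n = 4), followed by mt-Atp6 at 14727 ± 2204, mt-Co3 at 10060 ± 2310, mt-Co2 at 10019 ± 1414 and mt-Cytb at 8930 ± 1207. In the libraries labelled Bmal1-/- the same 5 genes stood at 11498 ± 1415, 9748 ± 1177, 6223 ± 847, 7442 ± 1323 and 5827 ± 692. mt-Co1 was above mt-Atp6 in 8 of 8 libraries although the ranges of these neighbours overlapped in both groups. mt-Co3 and mt-Co2 changed places by their means alone: mt-Co3 was the higher in 1 of 4 libraries labelled Bmal1+/+ and in 0 of 4 of the others. That library was Bmal1+/+ replicate 4, with mt-Co3 at 13464 and mt-Co2 at 12047. The medians of the libraries labelled Bmal1+/+ were 9081 for mt-Co3 and 9527 for mt-Co2. By their means mt-Nd4l and mt-Nd2, places 7 and 8 in the libraries labelled Bmal1+/+, changed places too, with mt-Nd4l the higher in 4 of 4 and in 2 of 4 libraries.

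The members of complex I and mt-Atp8 filled the lower places. mt-Nd4 was at 6821 ± 1137 and mt-Nd4l at 6466 ± 1074 in the libraries labelled Bmal1+/+, as near to each other as the spread of either, and at 4496 ± 621 and 3894 ± 747 in the libraries labelled Bmal1-/-. mt-Nd2 was at 4512 ± 793 and 4198 ± 456. mt-Nd3 moved from place 10 of 13 to the last place, from 3194 ± 1055 to 1636 ± 193, while mt-Nd5, mt-Nd6 and mt-Atp8 each moved up by 1. mt-Atp8 was at 2196 ± 371 and 1926 ± 257, far below mt-Atp6, with which it shares an mRNA. Of the 12 neighbouring pairs in this order, the ranges failed to overlap for none in the libraries labelled Bmal1+/+ and for mt-Atp6 over mt-Co3 and mt-Nd1 over mt-Nd3 in the others.

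Within the mRNA pool, the shares of some genes did not overlap between the groups. Of all counts on the 13 mRNAs and their close copies, mt-Nd2 took 4.75% to 5.30% in the libraries labelled Bmal1+/+ and 6.75% to 7.40% in those labelled Bmal1-/-. The shares of mt-Nd6 (1.24% to 1.44% against 1.53% to 1.91%) and mt-Atp8 (0.461% to 0.523% against 0.605% to 0.667%) were also higher without overlap. The share of mt-Co1 was lower without overlap, at 30.6% to 32.5% against 27.2% to 29.7%, and the ranges of the other 9 genes overlapped. By normalized levels, another measure, 16.8% of all genes tested were lower without overlap and 16.7% higher. These shares sum to a whole, so 1 gene's share moves with those of the rest.

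The rRNAs of the small and large mitochondrial ribosome subunits, mt-Rnr1 and mt-Rnr2, did not pass the test in either direction. mt-Rnr1 was at 212, 255, 369 and 312 CPM in the group labelled Bmal1+/+ and at 315, 318, 334 and 171 CPM in those labelled Bmal1-/- (-0.01 ± 0.24, adjusted p = 0.97). mt-Rnr2 was at 363, 366, 546 and 540 CPM and at 437, 463, 498 and 545 CPM (0.10 ± 0.17, adjusted p = 0.70). With edgeR 0 of the 2 had an unadjusted p below 0.05, and DESeq2 and limma-voom called 0. Both overlapped between the groups, and replicate 4 of the libraries labelled Bmal1-/- held the lowest value of mt-Rnr1 and the second highest of mt-Rnr2. Together they took 0.0579% to 0.0922% of counts, although they are known to be abundant in cells. The labels name an mRNA-Seq library kit, whose part in these low counts was not tested.

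The tRNA genes are 59 to 75 bases long and gave few counts. They took 0.0180% to 0.0308% of all counts. Of the 22, 16 were tested, 2 were called lower and 2 higher, shares of 12.5% each, which are below the background of 16.2% lower and 14.9% higher. The sequences of these 4 and of mt-Ts2, which is described further on, show how short the counted stretches are; capitals mark the anticodon, found as the named triplet after a pyrimidine and before a purine in the middle of the gene. The positions are those of the plus strand, chrM:3706-3774 for mt-Ti, chrM:3845-3913 for mt-Tm, chrM:11546-11612 for mt-Th, chrM:2676-2750 for mt-Tl1 and chrM:11613-11671 for mt-Ts2.
mt-Ti: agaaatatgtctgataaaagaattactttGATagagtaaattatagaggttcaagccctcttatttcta
mt-Tm: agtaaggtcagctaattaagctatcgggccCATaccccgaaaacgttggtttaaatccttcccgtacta
mt-Th: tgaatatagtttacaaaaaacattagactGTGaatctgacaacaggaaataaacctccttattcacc
mt-Tl1: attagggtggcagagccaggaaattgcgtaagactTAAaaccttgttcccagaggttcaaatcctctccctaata
mt-Ts2: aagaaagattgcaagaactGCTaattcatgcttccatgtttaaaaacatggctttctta

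The 2 genes that fell lie between mt-Nd1 and mt-Nd2. mt-Ti, the tRNA for isoleucine, had 133, 85, 134 and 169 counts in the libraries labelled Bmal1+/+ and 65, 42, 65 and 42 in those labelled Bmal1-/-. mt-Tm, the tRNA for methionine, had 90, 86, 71 and 179 counts and 57, 30, 46 and 43. On the normalized scale neither overlapped between the groups, with differences of -1.14 ± 0.23 (adjusted p = 0.0050) and -1.12 ± 0.28 (adjusted p = 0.013). mt-Ti shares 2 bases with the end of mt-Nd1 and 3 with mt-Tq on the opposite strand.

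The 2 genes that rose lie elsewhere, mt-Tl1 after the rRNAs and mt-Th after mt-Nd4. mt-Th, the tRNA for histidine, had 142, 125, 103 and 150 counts and 167, 174, 211 and 252, and its normalized levels did not overlap (0.78 ± 0.17, adjusted p = 0.0073). mt-Tl1, a tRNA for leucine, had 153, 149, 141 and 294 counts and 230, 243, 324 and 453. Its normalized levels overlapped, since Bmal1+/+ replicate 4, at 16.4 CPM, was above the lowest of the other group at 14.4 CPM (0.93 ± 0.27, adjusted p = 0.027). The call of mt-Tl1 did not hold without Bmal1+/+ replicate 1, 2 or 3 (adjusted p = 0.072, 0.074 and 0.069) and when replicate 3 or 4 of the second group was left out (0.067 and 0.055).

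Of the other 12 tested tRNAs none passed, and 6 had an unadjusted p below 0.05. The cluster of mt-Ta, mt-Tn, mt-Tc and mt-Ty, read from the minus strand between mt-Nd2 and mt-Co1, had differences of 0.71, 0.60, 0.48 and 0.70 with adjusted p between 0.055 and 0.18, and mt-Tp had 1.05 ± 0.37 (adjusted p = 0.057). Without Bmal1+/+ replicate 4, in which these 4 stood highest of their group, the cluster passed (adjusted p = 0.011, 0.013, 0.032 and 0.0055), as did mt-Tr (0.048), and mt-Tp passed when replicate 4 of the second group was left out (0.010). Over the 7 tested tRNAs of the minus strand the median difference was 0.60 with none called and 4 at an unadjusted p below 0.05, and over the 9 of the plus strand it was 0.31. Strand use in the authors' counting is not stated, so reads of a minus-strand tRNA and of an unprocessed RNA across it may not have been kept apart.

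The 6 tRNAs that were not tested were mt-Tf, mt-Tv, mt-Tq, mt-Td, mt-Tt and mt-Ts2. All but the last had at most 17 counts in any library, and mt-Tf had at most 2, under the floor of 3 counts. mt-Ts2, a tRNA for serine, had 1, 1, 1 and 307 counts in the libraries labelled Bmal1+/+ and 309, 1, 1 and 1 in those labelled Bmal1-/-, so a single library of each group held nearly all of its counts.

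**Figure D4:**
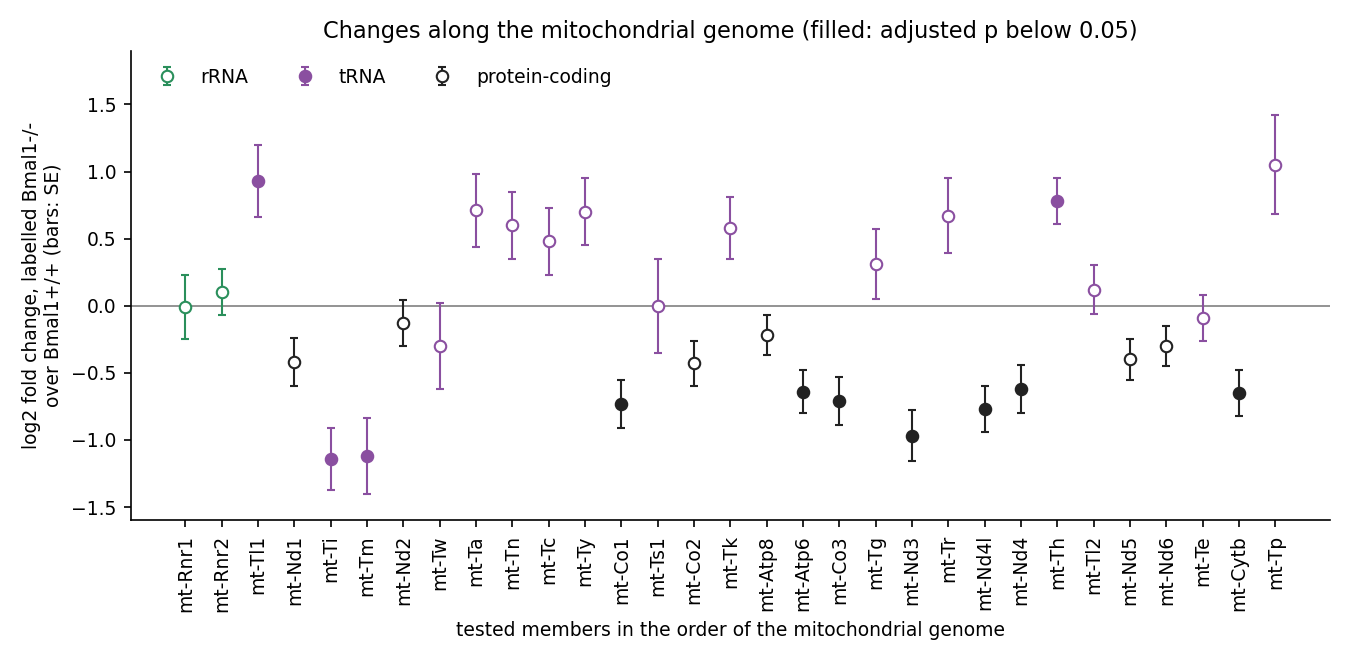
Log2 fold change of the libraries labelled Bmal1-/- over the libraries labelled Bmal1+/+ (y axis, bars are 1 SE) for the 31 tested members in gene order, black for mRNAs, green for rRNAs and purple for tRNAs, filled where the adjusted p is below 0.05. The 13 mRNAs lie between -0.97 and -0.13, the rRNAs near 0, and the tRNAs on both sides, from -1.14 to 1.05.

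Few of the nuclear genes for the machinery of these transcripts were called lower. Among 18 tested genes for transcription or replication of the mitochondrial genome, taken as 1 list, 1 was called lower and 2 higher. The median difference was 0.18. The shares called, 5.56% lower and 11.1% higher, were below those of all genes, 16.2% and 14.9%. Polrmt, the mitochondrial RNA polymerase, rose from 20.6 ± 1.89 to 28.2 ± 1.66 CPM (0.45 ± 0.10, adjusted p = 0.0084). Top1mt, the mitochondrial type I topoisomerase, rose from 18.7 ± 1.39 to 34.3 ± 3.32 CPM (0.88 ± 0.11, adjusted p = 3.3e-04). Mterf2 fell from 1.86 ± 0.282 to 0.885 ± 0.426 CPM (adjusted p = 0.044), a call that held in only 1 of the 8 fits that each left out 1 library. Tfam, which packs mitochondrial DNA and starts its transcription, was at 38.2 to 55.7 and 34.3 to 38.6 CPM and was not called (-0.34 ± 0.12, adjusted p = 0.056), though it passed without Bmal1+/+ replicate 1 (0.030).

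Among 26 genes for RNA processing and stability, 1 was called in each direction and the median was 0.04. The share called, 3.85% in each direction, was below that of all genes, 16.2% lower and 14.9% higher. Rexo2, an RNA exonuclease, rose (0.55 ± 0.12, adjusted p = 0.0061) and Angel2 fell (-0.47 ± 0.09, adjusted p = 0.0037). Lrpprc, which keeps the mitochondrial mRNAs stable, was at 151 ± 6.11 and 155 ± 8.68 CPM (0.04 ± 0.09, adjusted p = 0.76).

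Among 16 regulators of mitochondrial biogenesis, 2 were called lower and 1 higher, or 12.5% and 6.25%, beside 16.2% and 14.9% of all genes. The 2 that fell had larger differences than the mitochondrial mRNAs. Ppargc1a, the coactivator PGC-1alpha, was at 21.2, 31.1, 27.5 and 34.4 CPM in the group labelled Bmal1+/+ and at 14.6, 8.38, 9.75 and 7.53 CPM in those labelled Bmal1-/-, without overlap (-1.50 ± 0.22, adjusted p = 0.0010). Esrrg, a nuclear receptor that works with it, fell from 9.10 ± 1.54 to 1.39 ± 0.741 CPM (-2.69 ± 0.33, adjusted p = 3.3e-04). Clpp, a protease of the mitochondrial matrix, rose (0.40 ± 0.11, adjusted p = 0.019), a call lost without Bmal1+/+ replicate 4 (0.057).

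Of 16 tested genes on a list for reading the mRNAs into protein, 4 were called higher and 1 lower. These are 25% and 6.25%, beside 14.9% and 16.2% of all genes. Besides translation factors the list holds Gtpbp3, Mto1, Trmu and Pus1, which modify tRNAs, and Oxa1l. Trmu and Oxa1l were among the genes called higher. The median was 0.14. Mtif2, an initiation factor, rose (0.51 ± 0.10, adjusted p = 0.0048), as did Mtfmt, which formylates the initiator tRNA (0.80 ± 0.16, adjusted p = 0.0054), and Oxa1l, which inserts proteins into the inner membrane (0.37 ± 0.09, adjusted p = 0.014). Gfm1, an elongation factor, fell (-0.38 ± 0.10, adjusted p = 0.016).

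The aminoacyl-tRNA synthetases load the mitochondrial tRNAs. Their list also holds Gatb, Gatc and Qrsl1, which are subunits of an amidotransferase and not synthetases. Of its 20 genes 8, Gatc among them, were called higher and 0 lower (2 had a difference below 0). This is a share of 40% against the background of 14.9%. Cars2, for cysteine, rose from 14.9 ± 1.07 to 20.9 ± 2.06 CPM (0.49 ± 0.11, adjusted p = 0.0085), and its call held in all 8 fits that left out 1 library. Mars2 (0.55), Tars2 (0.48), Sars2 (0.45), Aars2 (0.38) and Gatc (0.35) were called with adjusted p between 0.029 and 0.038, and each lost the call in 4 to 6 of those 8 fits. The list's count of 8 was 2 with no filter on low counts. It was 5, 4, 4 and 2 without Bmal1+/+ replicates 1 to 4, and 4, 2, 3 and 7 without replicates 1 to 4 of the second group. The background of 14.9% comes from the main fit with all 8 libraries, so these counts were not set against it.

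Of 81 tested genes with the symbol of a mitochondrial ribosomal protein, 14 were called higher and 1 lower, with a median of 0.22. The list also holds Mrps36-ps1, Mrps36-ps2, Mrpl23-ps1 and Mrpl48-ps, by their names pseudogenes, and none of these was called. The share called higher, 17.3%, was near that of all genes, 14.9%. The count of 14 was 7 with no filter, 8 without Bmal1+/+ replicate 1 or 2, and 7 when replicate 2 or 3 of the second group was left out. Mrps12 (0.74 ± 0.19, adjusted p = 0.016), Mrpl57 (0.56 ± 0.14, adjusted p = 0.014) and Mrpl20 (0.55 ± 0.14, adjusted p = 0.013) rose most among those named by rule, and Mrpl15 fell (-0.57 ± 0.11, adjusted p = 0.0030). Mrps22 and Mrpl16 were called with smaller differences (0.39 and 0.38, adjusted p = 0.042 and 0.033) and each held in 2 of the 8 fits.

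Most nuclear subunits of the respiratory chain join the 13 mitochondrial proteins in the same complexes. The list also holds Sdha, Sdhb, Sdhc and Sdhd of complex II, which contains none of the 13. Of 84 tested, 6 were called higher and 2 lower, with a median of 0.13, where the 13 mitochondrial mRNAs had -0.62. The shares called, 7.14% and 2.38%, were below those of all genes. The count of 6 was 3 with no filter, 2 and 4 without Bmal1+/+ replicates 1 and 4, and 4, 2, 2 and 16 without replicates 1 to 4 of the second group. Ndufv3, of complex I, rose from 39.6 ± 5.67 to 69.3 ± 7.46 CPM (0.81 ± 0.13, adjusted p = 0.0014). Ndufs6 and Ndufs5, of the same complex, were called higher (0.65 and 0.52, adjusted p = 0.033 and 0.034), and Sdhd and Cox6c2 lower (-0.40 and -0.55, adjusted p = 0.035 and 0.048); each of these 4 lost the call in 4 to 6 of the 8 fits. The list also holds Atp5k-ps2, Atp5l2-ps and Ndufb1-ps, by their names pseudogenes, of which Atp5k-ps2 was called higher (1.26, adjusted p = 0.017). Counts on the mitochondrial mRNAs and their close copies were 8.62 to 12.9 times those on the nuclear subunits in the libraries labelled Bmal1+/+ and 5.58 to 6.96 times in those labelled Bmal1-/-, without overlap. Over the 7 nuclear lists, 36 of 261 genes were called higher and 8 lower, or 13.8% and 3.07%, beside 14.9% and 16.2% of all genes tested. The total of 44 calls became 29 and 27 without Bmal1+/+ replicates 1 and 4, and 23 and 28 without replicates 2 and 3 of the second group.

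**Figure D5:**
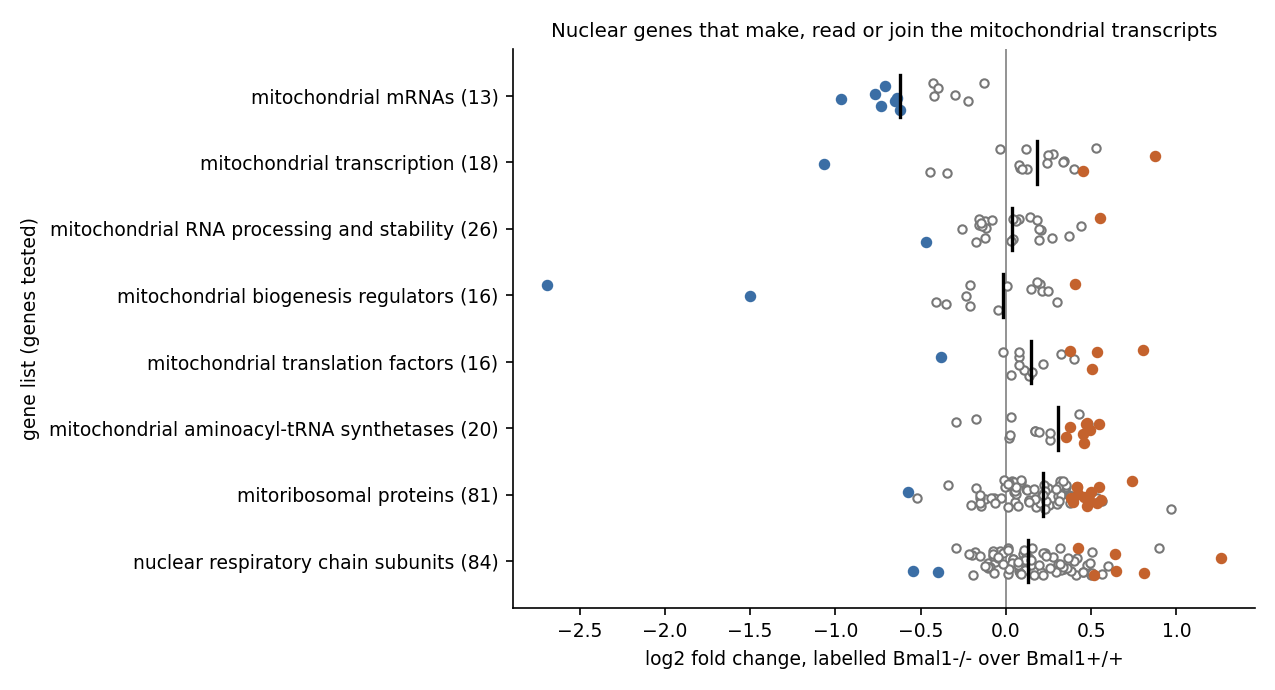
Log2 fold change (x axis, libraries labelled Bmal1-/- over Bmal1+/+) of the 13 mitochondrial mRNAs and of the tested genes of 7 nuclear lists, 1 point per gene, filled blue (lower) or orange (higher) where the adjusted p is below 0.05, with a black bar at each median. The mitochondrial mRNAs have a median of -0.62, and the medians of the nuclear lists lie between -0.02 and 0.31.

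Markers of some cell types also differed between the groups, in both directions. Of 20 tested stromal genes 13 were called lower (65%) and 0 higher, with a median of -0.75. Of 35 hepatocyte genes 1 was called lower (2.86%) and 9 higher (25.7%), with a median of 0.21. Of 5 erythroid genes 3 were called lower (60%) and 1 higher (20%), and of 5 epithelial and tumor genes 2 lower (40%) and 1 higher (20%). Of all genes tested 16.2% were called lower and 14.9% higher. The summed share of the stromal list and of the epithelial list did not overlap between the groups, whereas those of the hepatocyte, erythroid, muscle and adipocyte lists did. Of 12 muscle genes 9 were at or under 3 counts in every library, among them Ckm, Mb and Acta1. Of 8 adipocyte genes 3 were, including Ucp1, the marker of brown fat. Alb, the 1 gene of the hepatocyte list that was called lower, took 6.48% to 7.08% of counts in the libraries labelled Bmal1+/+ and 1.25% to 1.93% in the others. The part of these differences in the fall of the mitochondrial mRNAs was not tested.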

How the data were processed

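RNA-seq of 8 libraries of the tumor stromal vascular fraction was used, 4 labelled Bmal1+/+ and 4 labelled Bmal1-/-, of which 1 titled with another number was replicate 4 by its description. The authors mapped reads to GRCm38 with HISAT2 and deposited raw counts per gene from StringTie, while the submitters' processing notes name CASAVA 1.8 and TopHat2 2.0.6. Strand use is not stated. The deposited FPKM equal the count over the library total and 1 fixed length within 1% for 100% of tested genes, so they were not tested apart. Library totals were 14054825 to 18449143, and the floor of 3 counts is 0.163 to 0.213 CPM. The smallest chi-square per degree of freedom between libraries of 1 label was 18.0, so none was a duplicate. Replicate 4 of the libraries labelled Bmal1-/- was at 129 to 150 against the others of its label. Those others were at 18.0 to 40 among themselves.

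Symbols and positions came from GENCODE M21 on GRCm38, an older release than the authors', and matched 99.4% of identifiers. Fold changes, SE, p and TMM-normalized CPM came from the counts with edgeR 4.0.16 under R 4.3.3 (genes kept by filterByExpr, prior count 0.125, quasi-likelihood test). Transcripts were matched with blastn 2.17.0 at 90% identity over at least 100 bases. Of the symbols first listed as nuclear copies, Gm10263 and Gm28040 had no match and were left out. All mt- genes were named. Per nuclear list the 3 most negative and 3 most positive differences were named, where a gene was called, averaged 1 CPM or more and did not overlap, besides Tfam, Polrmt, Lrpprc and Ppargc1a. Members, lists and tests were chosen with earlier results of these data known. The scripts were tested on simulated counts.

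Alternatives were DESeq2 1.42.0, limma-voom (limma 3.58.1), upper-quartile scaling, library size alone, scaling without mitochondrial or hepatocyte genes, no filter, at least 10 counts in every library, a prior count of 2, the study's cut-off, the replicate block and leaving out each library. Adding copies to their genes, scaling without both, and lists limited to 1 CPM were chosen after the data were seen.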

Additional observations from a re-analysis of the deposited data

Results flagged for a closer look

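Values far from the rest of their group of 4 were sought in 94 groups by Dixon's test at its 95% limit. It marked 12, where about 1 in 20 groups is marked when no value stands apart.

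Bmal1+/+ replicate 4 was the high value in 7 of the 12, at 6068 CPM for mt-Nd2 (the others 4250 to 4340), 16.4 for mt-Tl1 (9.21 to 9.54), 9.97 for mt-Tm (4.77 to 5.51), 126 for mt-Te (73.6 to 81.9), 5939 for Gm28437 (3487 to 3873), 1254 for Gm10222 (869 to 920) and 17.1 for mt-Ts2 (0.0602 to 0.0672). It was also the library with the highest share of counts on the 13 mRNAs, at 8.51%. Without it 6 of the 13 mRNAs were called lower.

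mt-Ts2 stood apart in replicate 1 of the libraries labelled Bmal1-/- as well, at 19.3 CPM against 0.0678 to 0.0712 in the other libraries of its group. Replicate 4 of the libraries labelled Bmal1-/- was low for mt-Rnr1, at 171 CPM (315 to 334), and for mt-Cytb, at 5606 CPM (6858 to 6995). The remaining values were 34.8 CPM for mt-Tl2 in Bmal1+/+ replicate 2 (30.6 to 31.2) and 0.1249 CPM for mt-Tf in replicate 1 of the libraries labelled Bmal1-/-, which is 2 counts against 1.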

How the results depend on the processing

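The fold changes of the 13 mRNAs were below 0 in 260 of 260 combinations of gene and alternative setting, and 0 of the 13 were called higher in any. Counts of calls moved more. Of the mRNAs 7 were called lower, 2 with the replicate number as a block, 0 by the study's cut-off and 5 to 7 when 1 library was left out; DESeq2 gave 10 and limma-voom 8. Of the tRNAs 4 were called, 7 with DESeq2, 7 with the block, 3 by the study's cut-off and 3 to 9 when 1 library was left out. Of the 7 nuclear lists 44 genes were called, 25 without the filter on low counts, 4 by the study's cut-off, 39 with the block and 23 to 56 when 1 library was left out. Of the nuclear copies 7 were called, 1 by the study's cut-off and 5 with the block. The replicate numbers did not pair the samples: libraries that share a number had correlations of their deviations of -0.09, 0.06, 0.04 and 0.03. The rRNAs were called in none of the settings. The difference in the share of counts on the mRNAs was -2.26 percentage points, and -2.50 to -1.79 when 1 library was left out. Low counts limit the tRNAs, of which 6 were not tested.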
